A study of Mus musculus with 58 samples.

Results

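The genes described here are 10 interferon-stimulated genes of the mouse, Oas2, Oas3, Oasl1, Oasl2, Ifit1, Ifit3, Rsad2, Isg15, Usp18 and Irf7, followed in lung, liver and forestomach of the same animals. They were chosen from measured values of these arrays, so their own levels and differences are given as descriptions with no test. They are 10 of 20678 named genes and are read by 11 of 55681 probes, since Isg15 has 2 probes and the others 1 each. The brighter Isg15 probe, by its mean over all arrays, stands for that gene.

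Male Muta™Mouse, a transgenic strain carrying a lacZ reporter for mutations, were about 13 weeks old and received indeno(123,cd)pyrene (IP), a polycyclic aromatic hydrocarbon, by oral gavage daily for 28 days. Daily doses in olive oil were 12.5 mg/kg-bw, 25 mg/kg-bw or 50 mg/kg-bw, called by their number from here on, and vehicle mice received olive oil alone. Every mouse, vehicle included, thus had the gavage, the oil, the transgene and individual housing. Tissue was taken 72 h after the last dose, and RNA came from random sections of each tissue. Lung had 20 arrays, 5 in each group, and liver and forestomach had 19 each, with 4 vehicle mice and 5 at each dose. Mice carry the numbers of the labels, with 1 to 5 for vehicle, 6 to 10 for 12.5, 11 to 15 for 25 and 16 to 20 for 50 mg/kg-bw/day. Mouse 4 was measured in lung alone, so 19 mice had all 3 tissues. Each value is the log2 ratio of the Cy5-labelled sample to a Cy3-labelled universal mouse reference RNA from 11 cell lines, normalized by loess within the array. It therefore compares 1 gene between samples and does not rank genes against each other.

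The tissue labels were checked against marker genes. The surfactant gene Sftpc had a mean log2 ratio of 7.92 in lung against 0.08 in liver, and Alb, the albumin gene, had 7.43 in liver against 0.28 in lung. In forestomach the squamous epithelium genes Krt4 and Sprr3 had means of 6.50 and 6.11. Part of the forestomach arrays also carried genes of glandular stomach, which the label does not name and which are taken up with Oasl1. The arrays differed in the share of probes well above background. It was 83.8 to 90.7% in the 4 lung arrays of slide 3 and 53.0 to 70.4% in the 16 others. The 2 forestomach arrays of that slide had 81.2 to 85.9% against 43.0 to 58.9% in the 17 others. In liver 5 arrays (mice 9, 13, 15, 16 and 20, each of them dosed) had 66.6 to 78.9% against 37.6 to 45.0% in the 14 others. The members' medians against vehicle, their spread, their pairwise r and the lung to liver r are also given without these arrays. Each lung slide held 1 array of each dose, and the dose lay with the place on the slide, so these cannot be told apart in lung.

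Interferons are released when a cell senses foreign or misplaced nucleic acid. Type I interferons act through the receptor subunits Ifnar1 and Ifnar2 and the kinases Jak1 and Tyk2. The signal leads to ISGF3, a transcription factor that holds Stat2 and Irf9 and binds the interferon-stimulated response element (ISRE) in the promoters of interferon-stimulated genes. Irf7, itself such a gene, drives further interferon transcription, and Usp18 removes ISG15 from proteins and dampens the receptor. In unchallenged tissue most of these genes run at a low tonic level.

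The promoters of these genes are shown because the ISRE is the sequence that the pathway acts through. RefSeq promoter windows (GRCm38.p6, 250 bases before to 50 after the start that the promoter set assigns) were found for 8 of the 10 genes. The others were Oas2 and Usp18. For Ifit3, Irf7 and Oasl1, and by less for Oas3 and Oasl2, the assigned start lay inside the gene coordinates. In these genes less than 250 bases before the outer gene end was searched, so a core there could be missed. The core searched was GAAA, any 2 bases and GAAA, on either strand with overlaps counted. It was present in 5 of the 8 windows, those of Ifit1, Ifit3, Isg15, Oas3 and Rsad2, and in 3.44% of 32851 promoter windows of the same length. Below are 2 windows with the core and those of Irf7 and Oasl1, the genes with the largest liver differences, whose windows do not hold these letters. The core is in capitals and the rest in lower case, 5′ to 3′ in the direction of the gene. The windows are chr19:34640639-34640938 (plus strand) for Ifit1, chr4:156200769-156201068 (minus strand) for Isg15, chr7:141266375-141266674 (minus strand) for Irf7 and chr5:114922990-114923289 (plus strand) for Oasl1.
Ifit1: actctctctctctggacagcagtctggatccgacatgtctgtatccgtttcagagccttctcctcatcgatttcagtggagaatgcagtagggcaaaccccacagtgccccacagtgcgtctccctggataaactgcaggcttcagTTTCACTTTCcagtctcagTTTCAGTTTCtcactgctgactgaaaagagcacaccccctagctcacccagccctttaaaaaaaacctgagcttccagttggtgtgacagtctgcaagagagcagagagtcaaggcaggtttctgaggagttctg
Isg15: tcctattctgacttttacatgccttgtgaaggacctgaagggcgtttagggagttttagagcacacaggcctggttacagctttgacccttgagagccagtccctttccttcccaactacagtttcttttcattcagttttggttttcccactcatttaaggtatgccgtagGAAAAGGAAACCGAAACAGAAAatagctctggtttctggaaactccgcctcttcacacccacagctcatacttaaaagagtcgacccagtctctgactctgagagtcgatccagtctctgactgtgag
Irf7: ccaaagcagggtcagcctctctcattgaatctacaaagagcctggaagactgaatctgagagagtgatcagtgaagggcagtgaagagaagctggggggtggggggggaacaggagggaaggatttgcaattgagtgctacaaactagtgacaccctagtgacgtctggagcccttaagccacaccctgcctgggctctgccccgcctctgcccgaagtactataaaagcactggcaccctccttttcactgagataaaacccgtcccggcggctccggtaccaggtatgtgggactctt
Oasl1: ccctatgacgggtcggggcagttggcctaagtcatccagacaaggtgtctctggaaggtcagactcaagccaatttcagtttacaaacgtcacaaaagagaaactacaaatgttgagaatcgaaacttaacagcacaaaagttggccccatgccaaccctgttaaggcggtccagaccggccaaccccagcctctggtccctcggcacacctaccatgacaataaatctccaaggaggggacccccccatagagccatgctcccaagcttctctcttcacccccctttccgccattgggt
Ifit1 carried 2 cores on the minus strand, at −104 and −85 from the gene start. Isg15 carried 3 overlapping cores on the plus strand, at −78, −72 and −66. Ifit3, a neighbour of Ifit1 on chromosome 19, likewise had 2. The core bound by the aryl hydrocarbon receptor, GCGTG on either strand, was in 2 of the 8 windows, Oasl2 and Rsad2, and in 32.4% of all windows. The γ-activated core, TTC, any 3 bases and GAA, was in 0 of the 8 and in 8.3% of all. Several members lie side by side in the genome. Oasl2 (GRCm38.p6, 5:114896926-114912245) adjoins Oasl1 (5:114923143-114937911), Oas2 (5:120730333-120749886) adjoins Oas3 (5:120753098-120777684), and Ifit3 (19:34583119-34588982) lies near Ifit1 (19:34640889-34650009).

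**Figure D1:**
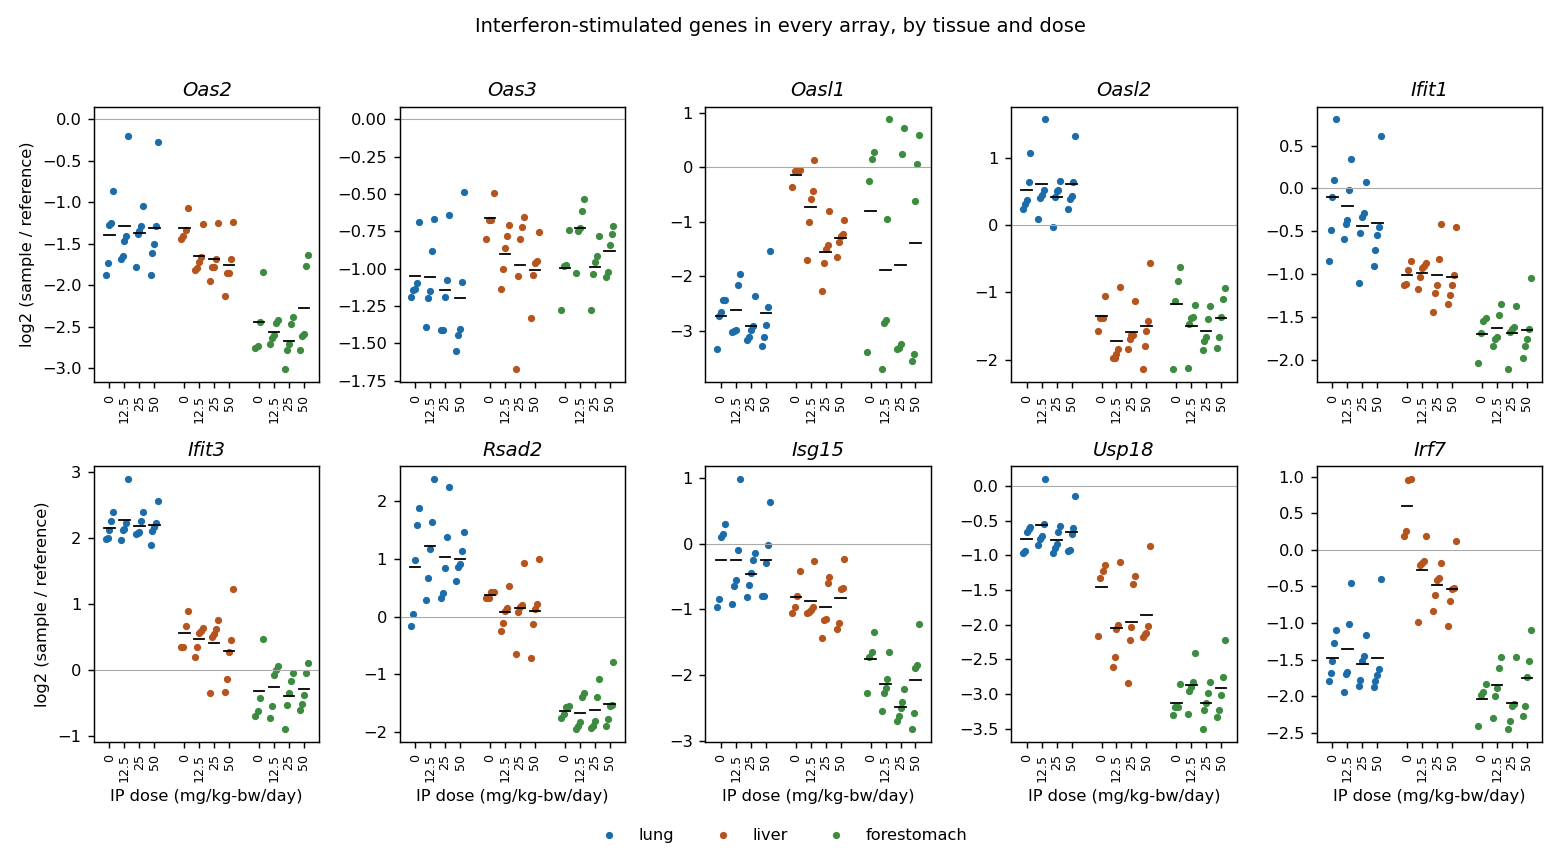
Log2 ratio of sample to reference (y axis, a separate scale for each gene) of the 10 genes in each of the 58 arrays, by tissue and IP dose in mg/kg-bw/day (x axis); each point is 1 mouse. The dose groups overlap for most genes, whereas Irf7 and Oasl1 are lower at the doses than in vehicle liver and Oasl1 in forestomach falls into separate ranges.

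In vehicle mice, Oasl2, Ifit3, Ifit1 and Usp18 were higher in lung than in liver, and Irf7 and Oasl1 were lower. Most members were lowest in forestomach. Since liver was hybridized on other slides (6 to 8, against 1 to 5) and read with a later version of the scanner software, its differences from the other tissues cannot be told apart from slide and software. Liver, lung and forestomach were compared in a joint limma fit of all groups, and a gene counts as called at a Benjamini-Hochberg adjusted p of 0.05 over all probes and a fold change of 1.5. In bulk tissue, fewer cells that express a gene and less RNA per cell cannot be told apart.

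Oasl2, a 2′,5′-oligoadenylate synthetase-like protein with ubiquitin-like domains, was at 0.38, 1.07, 0.31, 0.24 and 0.64 in the lungs of vehicle mice 1 to 5. In the livers of vehicle mice 1, 2, 3 and 5 it was at −1.37, −1.05, −1.57 and −1.39. In their forestomachs it was at −2.14, −0.62, −0.82 and −1.13. All vehicle lungs lay above all vehicle livers and forestomachs, and the lung minus liver difference was 1.87 ± 0.27 (SE), the lung minus forestomach difference 1.71 ± 0.27. Over the 19 mice with all tissues, doses included, lung was above liver and above forestomach in 19 of 19. Oas2, which makes the 2′,5′-oligoadenylates that switch on RNase L, was above its own forestomach value in the lungs of 19 of 19 mice, by 1.18 ± 0.43 (SD). Oas3, an enzyme of the same kind, did not order the tissues, since its vehicle lung minus liver difference of −0.39 ± 0.17 (SE) turned to 0.58 under median centring, in which each array's median replaces the loess curve.

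Ifit3, which binds viral RNA together with Ifit1, was at 2.12, 2.39, 1.99, 1.98 and 2.26 in vehicle lung. In vehicle liver it was at 0.35, 0.90, 0.36 and 0.67. In vehicle forestomach it was at −0.69, 0.47, −0.61 and −0.42. The lungs stood above the other tissues without overlap, by 1.58 ± 0.23 (SE) over liver and 2.46 ± 0.23 over forestomach. Ifit1 was higher in lung than in liver by 0.90 ± 0.25 and than in forestomach by 1.59 ± 0.25, where its probe was well above background on 9 of 19 arrays. Rsad2, the gene of viperin, which blocks the replication of many viruses, was higher in lung than in forestomach by 2.50 ± 0.35. Its probe was well above background on 8 of the 19 forestomach arrays, so its low level there is poorly measured.

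Isg15, the ubiquitin-like modifier attached to proteins in the response, was higher in lung than in forestomach by 1.49 ± 0.30 with its brightest probe and 1.11 ± 0.27 with the other. Between lung and liver its probes disagreed in sign, at 0.55 ± 0.30 and −0.32 ± 0.27. Usp18 was higher in lung than in liver by 0.71 ± 0.27 and than in forestomach by 2.37 ± 0.27. Irf7, the transcription factor, ran the other way. It was at −1.68, −1.09, −1.28, −1.79 and −1.52 in vehicle lung and at 0.95, 0.97, 0.19 and 0.26 in vehicle liver. The difference of −2.07 ± 0.27 had the same sign in 19 of 19 mice, and forestomach was below liver in 19 of 19 mice as well. With median centring it was −0.78. Oasl1, known as a translational inhibitor of Irf7 mRNA, was lower in lung than in liver by 2.58 ± 0.75 on the log2 scale, with the lungs at −2.65, −2.44, −2.44, −3.34 and −2.73. That SE comes from the joint fit of all tissues and so includes the wide spread of Oasl1 in forestomach.

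In all, 6 of the 10 members were called between vehicle lung and liver (4 higher and 2 lower in lung) against 26.8% of all probes. Between lung and forestomach 8 were called (7 higher, 1 lower) against 19.5%, and between forestomach and liver 7, each lower in forestomach, against 22.7%. As the members were picked from measured values, nothing is read from these shares. The share of all probes without overlap between tissues was not counted, so nothing is read from the members' separation either. The split between lung and liver depended on the scaling, since with median centring 7 members were called higher and 0 lower in lung. Against forestomach that setting called 8 higher and 0 lower. The share of all probes called between vehicle tissues was counted under loess alone. The counts under median centring, here and below, therefore do not tell a change in these genes from a change in all probes.

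The other genes of the pathway were taken from 6 lists of 65 measured genes, covering other interferon effectors, ISG15 conjugation, nucleic acid sensors, interferons and their receptors, JAK-STAT and IRF signalling, and interferon-γ-induced genes. Between vehicle lung and forestomach 43 were higher and 2 lower in lung, and with median centring 49 and 0. The median of the 65 was 1.08 against −0.01 over all probes. The called genes included Irf1, a transcription factor, at 3.09 ± 0.15 (limma adjusted p = 4.99e-24), Ube2l6, the conjugating enzyme for ISG15, at 3.05 ± 0.16 (adjusted p = 1.87e-22), and the immunoproteasome subunit Psmb8 at 2.95 ± 0.20 (adjusted p = 1.35e-17). Cgas, the cytosolic DNA sensor, was lower in lung by 1.07 ± 0.19 (adjusted p = 7.21e-06). Of the 23 other effectors, 16 were called higher in lung and 0 lower.

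Between forestomach and liver 7 were higher and 36 lower in forestomach, with a median of −0.83. Bst2 (tetherin), which holds budding virus at the membrane, was lower by 3.92 ± 0.34 (adjusted p = 1.66e-14), the GTPase Irgm1 by 2.99 ± 0.17 (adjusted p = 4.32e-21) and Ube2l6 by 2.59 ± 0.17 (adjusted p = 4.6e-19). Cgas was higher in forestomach by 1.91 ± 0.20 (adjusted p = 1.34e-11). Between lung and liver 23 were higher and 13 lower in lung, but with median centring 35 and 2, so that direction depended on the scaling for part of the list. Under loess, normexp, median centring, Aquantile, the software's own ratio and with outlier spots kept, 22 of the 65 were called each time and 25 changed sign at least once. Gbp2, a guanylate-binding GTPase, was higher in lung by 3.47 ± 0.24 (adjusted p = 8.26e-18) and the transcription factor Irf8 by 2.22 ± 0.15 (adjusted p = 9.32e-19), both called in the same direction under each of these settings. The DNA sensor Tlr9 was lower in lung, at −2.18 ± 0.10 (adjusted p = 2.55e-25). Ifnlr1, the interferon-λ receptor subunit, was also called, but its probe was well above background on 1 of 19 liver arrays and no size is given.

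In lung, the dose groups of every member overlapped the vehicle group, although single dosed mice lay above all vehicle mice. The highest vehicle lung was at −1.09 for Irf7 and −0.86 for Oas2, whereas mouse 9 at 12.5 was at −0.46 and −0.20 and mouse 18 at 50 at −0.40 and −0.27. The median difference of the 10 members from vehicle was 0.11 at 12.5, −0.09 at 25 and 0.04 at 50, against 0.00 over all probes. Ifit1 was the lowest at each dose, at −0.11, −0.33 and −0.30 (SE 0.29), and Rsad2 the highest, at 0.37, 0.17 and 0.13. Limma called 0 of the 10 at 12.5, 25 and 50 and for the mean of the doses, against 0%, 0.0126%, 0.079% and 0.0269% of all probes. Here each tissue had its own limma fit of its 4 groups, with the same thresholds.

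The sign of the lung medians was not stable. With median centring they became 0.25, 0.12 and 0.30, and without the 4 arrays of slide 3 the medians were 0.07, −0.16 and −0.21, all 10 members being below 0 at 50. The vehicle lungs also differed in the group means of some tissue markers. Their mean over 5 brown fat markers was 2.61 ± 0.89 (SD, n = 5) against 1.12 to 1.26 in the dose groups, that over 5 heart muscle markers was 3.93 ± 0.97 against 2.04 to 2.57, and that over 5 B cell markers was 0.61 ± 0.54 against 1.14 to 1.35. Their part in the members' differences was not tested.

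Of the 65 other pathway genes 0 were called in lung at any dose, while 8, 11 and 12 had an unadjusted p below 0.05 at 12.5, 25 and 50, as did 2185, 3635 and 4899 of the 55681 probes. At the highest dose 49 of the 65 were above 0, with a median of 0.11, and with median centring 56, with a median of 0.31. In each list the genes with the largest change at 50 were still short of the threshold. Socs1, an inhibitor of JAK kinases, differed by 0.46 ± 0.11 (adjusted p = 0.0943), Psmb9 by 0.43 (adjusted p = 0.136) and Sting1, the adaptor downstream of Cgas, by 0.36 (adjusted p = 0.141). Among the other effectors Zbp1 differed by 0.47 (adjusted p = 0.549) and Ifi44 by −0.49 (adjusted p = 0.751).

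**Figure D2:**
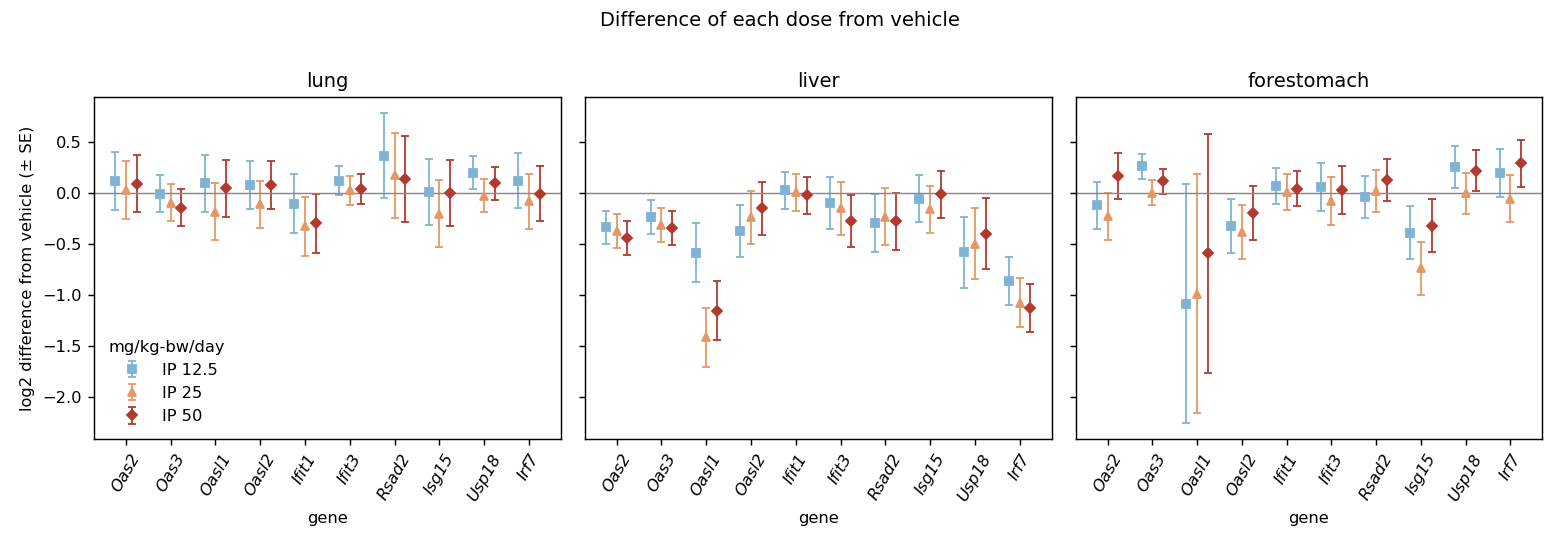
Log2 difference of each IP dose from vehicle (y axis) for the 10 genes (x axis) in lung, liver and forestomach; points are limma estimates and bars ± 1 SE. Lung differences lie between −0.33 and 0.37, Irf7 and Oasl1 have the lowest values in liver, and the bars of Oasl1 in forestomach are the widest.

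In liver, Irf7 and Oasl1 were lower at the doses than in vehicle mice. Irf7 was at 0.95, 0.97, 0.19 and 0.26 in vehicle mice 1, 2, 3 and 5. At 12.5, mice 6 to 10 had −0.19, −0.16, −0.99, 0.18 and −0.21. At 25, mice 11 to 15 had −0.62, −0.42, −0.38, −0.84 and −0.18, and at 50, mice 16 to 20 had −0.53, −1.05, 0.11, −0.52 and −0.69. No dosed liver reached the lowest vehicle value, although mouse 9 at 0.18 lay just below mouse 3 at 0.19. The differences from vehicle were −0.87, −1.08 and −1.13 (SE 0.24). With slide as a block they were −0.84, −1.06 and −1.07, and they were negative on each of the 3 liver slides at each dose, ranging from −1.49 to −0.28. Oasl1 and Oas3 were also negative on each liver slide at each dose, Oas3 ranging from −0.685 to −0.036.

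Oasl1 was at −0.08, −0.05, −0.37 and −0.04 in the same vehicle livers. At 12.5 it was at −0.44, −1.01, −1.71, 0.13 and −0.58. At 25 it was at −1.76, −1.50, −1.42, −2.27 and −0.81, and at 50 at −1.37, −1.25, −1.64, −0.97 and −1.22. The groups at 25 and 50 lay wholly below vehicle, whereas at 12.5 mouse 9 lay above every vehicle mouse. The share of all probes whose groups also fail to overlap was not counted. Nothing is therefore read from the separation of Irf7 or Oasl1, which were picked from measured values. The differences were −0.59, −1.42 and −1.16 (SE 0.29), so they did not grow from 25 to 50. Without the 5 arrays with a high share of probes above background, the differences were −0.98, −1.22 and −1.08 for Irf7 and −0.80, −1.71 and −1.15 for Oasl1. With median centring they kept their sign and became smaller, −0.49, −0.72 and −0.47 for Irf7 and −0.24, −1.13 and −0.61 for Oasl1.

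**Figure D3:**
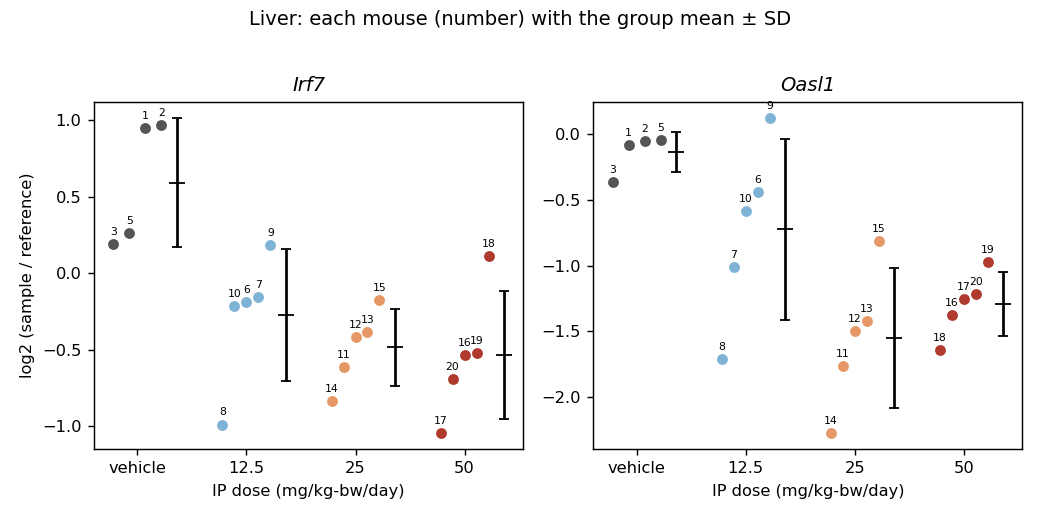
Log2 ratio of sample to reference (y axis) of Irf7 and Oasl1 in each liver by IP dose (x axis), with the mouse number beside each point and the group mean ± SD. Vehicle livers have Irf7 values of 0.19 to 0.97 and every dosed liver lies below them; for Oasl1, mouse 9 at 12.5 mg/kg-bw/day is the highest of the dosed livers at 0.13.

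The other members moved little or depended on the scaling. Below vehicle were 9, 9 and 10 of the 10 members at the rising doses, with medians of −0.32, −0.28 and −0.31, but with median centring 4, 4 and 2 were below and the medians were 0.05, 0.11 and 0.35. Without the 5 arrays with a high share of probes above background the loess medians were −0.37, −0.46 and −0.16. Usp18 was at −1.33, −1.14, −2.16 and −1.23 in vehicle livers, and its differences of −0.58, −0.50 and −0.40 (SE 0.35) turned to 0.18 at 50 under median centring. Oas2 differed by −0.34, −0.38 and −0.44 and turned to 0.02 at 12.5 and 0.19 at 50. Ifit1 and Isg15 differed by 0.03 and −0.06 at 12.5, 0.01 and −0.16 at 25, and −0.02 and −0.01 at 50. Limma called 0 of the 10 members at 12.5, 25 or 50 or for the mean of the doses, where 0% of all probes were called.

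The other pathway genes were likewise not called in liver (0 of 65), with 1, 3 and 5 at an unadjusted p below 0.05 at the rising doses, against 1437, 2458 and 3798 of all probes. Of the 23 other effectors 20, 19 and 18 were below 0, with medians of −0.19, −0.22 and −0.12, but with median centring 3, 4 and 1 were below 0 and the medians were 0.13, 0.13 and 0.43. Plasmacytoid dendritic cells are a major source of type I interferon. Their 5 markers had a mean of −0.18 ± 0.11 (SD, n = 4) in vehicle livers and of −0.26, −0.27 and −0.31 at the doses, with 4 or 5 markers well above background in each array. The plasmacytoid list does not clearly mark those cells in liver. There Siglech had a mean of 0.18 against 1.47 in lung, while Klk1 had 1.20 against 0.92. The 5 macrophage and monocyte markers were at 0.79 ± 0.18 in vehicle livers and 0.87, 0.71 and 0.87 at the doses. Of these, 3 or 4 were well above background in each array, Chil3 on 1 and Ccr2 on 5 of the 19 livers. The part of these cells in the differences of Irf7 and Oasl1 was not tested.

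In forestomach, the members' medians were 0.01, −0.07 and 0.08 at the rising doses, and 0.12, 0.20 and 0.37 with median centring. Without the 2 arrays of slide 3 they were −0.07, −0.07 and −0.06. Limma called 0 of the 10 members and 0 of the 65 other pathway genes at these doses or for their mean, where 0% of all probes were called. Of the 65, 2, 2 and 1 had an unadjusted p below 0.05, as did 2297, 2005 and 2168 of all probes. Isg15 differed by −0.39, −0.74 and −0.32 (SE 0.26) with its brightest probe. The other probe differed by 0.03, −0.17 and 0.08, so the probes disagreed, and median centring turned the first to 0.09 at 50.

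Oasl1 split the forestomach arrays. In vehicle mice 1, 2, 3 and 5 it was at −3.38, 0.28, 0.15 and −0.25. At 12.5 it was at 0.88, −2.86, −2.80, −3.71 and −0.95. At 25 it was at −3.33, −3.33, 0.71, −3.24 and 0.25, and at 50 it was at −3.42, −3.56, −0.62, 0.05 and 0.58. No array lay between −2.80 and −0.95, and 10 arrays lay above this gap and 9 below. Each dose group had arrays on both sides, 3 of 4 vehicle mice above and 2, 2 and 3 of 5 at the doses. The differences from vehicle, −1.09, −0.99 and −0.59, were thus within their SE of 1.17.

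The same 10 mice stood apart in genes of glandular stomach, the acid-secreting part that adjoins the forestomach. The mean of Gkn1, Gkn2, Tff1, Muc5ac and Atp4a had no array between 3.06 and 5.05, and the 10 arrays above were those with high Oasl1. Simple epithelium keratins, chosen after their values were seen, split the arrays in the same way, with gaps from −3.43 to −0.33 for Krt8, −0.98 to 1.73 for Krt19 and −1.73 to 1.49 for Krt20. Within the arrays above the gap the Pearson r of Oasl1 with the glandular mean was 0.61 (n = 10) and within those below 0.281 (n = 9), described across arrays that share a tissue section with both genes. The squamous markers ranged from 3.90 to 5.30 in the 19 arrays, so squamous tissue was present throughout.

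**Figure D4:**
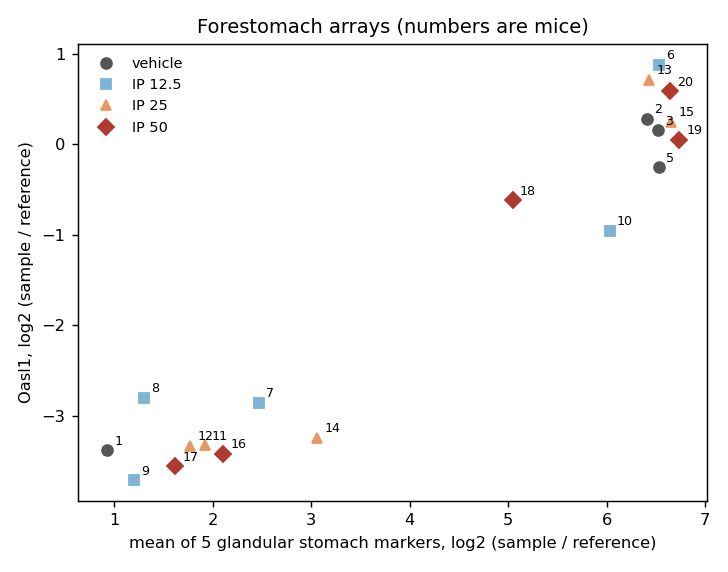
Oasl1 log2 ratio (y axis) against the mean log2 ratio of 5 glandular stomach markers (x axis) in the 19 forestomach arrays, numbered by mouse and marked by dose. The 10 arrays with Oasl1 at −0.95 or above are the ones with a marker mean of 5.05 or above, and both sides hold every dose.

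The response to the highest dose was also compared between tissues, as the difference of 2 differences in the joint fit, at an adjusted p of 0.05 with no fold limit. Limma called 0 of the 10 members and 0 of the 65 others for lung against liver, lung against forestomach and forestomach against liver, where 0.0162, 0.0144 and 0.00359% of all probes were called. At an unadjusted p below 0.05 were 10, 0 and 9 of the 65, and 3934, 1627 and 3413 of all probes. Irf7 and Oasl1 had the largest lung minus liver values among the members, 1.12 and 1.20, with SEs of 0.37 and 1.03. The values became 0.67 and 0.92 with median centring. The joint fit takes 1 spread per probe over the arrays of all tissues. For Oasl1 the residual SD was 1.92 in forestomach against 0.50 in lung and 0.47 in liver. Its SE and the missing call for lung against liver thus hold the forestomach spread.

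The members differed in how far they varied between mice of the same dose. In lung their residual SD, with the dose means removed, ran from 0.25 for Ifit3 to 0.75 for Rsad2, whereas the median named gene had 0.16 and the 95th percentile was 0.42. Of the 10, Oasl1, Oas2, Ifit1, Irf7, Isg15 and Rsad2 lay above that percentile. In liver they ran from 0.26 to 0.57 against a median of 0.21 and a 95th percentile of 0.51, which Usp18 alone of the 10 passed. In forestomach they ran from 0.19 for Oas3, below the median of 0.21, to 1.92 for Oasl1, the 1 member above the 95th percentile of 0.64. As the members were picked from measured values and the named genes were not filtered by signal, nothing is read from these percentiles. Without the arrays with a high share of probes above background the members ran from 0.17 to 0.64 in lung, 0.16 to 0.48 in liver and 0.18 to 2.03 in forestomach. Most members varied together in lung and liver, though not every pair. The Pearson r between members over the 20 lungs with dose removed had a median of 0.671 over the 45 pairs (0.054 to 0.899). With slide removed as well it was 0.873. In liver the median was 0.564 (−0.277 to 0.93) and in forestomach 0.431 (−0.305 to 0.762), and with slide removed 0.598 and 0.327. Set against the mean of the other members with dose removed, Oas3 had an r of 0.104 and Oasl1 of 0.308 in liver. In forestomach Ifit3 had 0.093. Without the arrays with a high share of probes above background the medians were 0.718, 0.627 and 0.31 in lung, liver and forestomach, and without mice 9 and 18 they were 0.414, 0.429 and 0.313. These r share the arrays, so the pairs are not independent.

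Mice 9 and 18 were often the highest. Mouse 18, at 50, ranked among the top 2 of 20 lungs for 9 of the 10 members, and among the top 2 of 19 for 7 of 10 in liver and in forestomach. Mouse 9, at 12.5, ranked among the top 2 lungs for 7 of 10, being the highest for 5. The lung and forestomach arrays of mouse 18 and the liver array of mouse 9 were among those with a high share of probes above background. Without such arrays mouse 9 was among the top 2 of 16 lungs for 9 members and mouse 18 among the top 2 of 14 livers for 7. For Oas2 the lungs at 12.5 were at −1.46, −1.64, −1.40, −0.20 and −1.69, where −0.20 is mouse 9, and those at 50 at −1.50, −1.87, −0.27, −1.61 and −1.28, where −0.27 is mouse 18. For Irf7 the same groups were at −1.67, −1.94, −1.01, −0.46 and −1.69, and at −1.79, −1.63, −0.40, −1.87 and −1.71. In each group the same mouse was the highest. The lung of mouse 9 was above the other 3 arrays of its slide for 10 of 10 members, by a median of 1.07, and that of mouse 18 was above all of its slide for 9 of 10. Vehicle mouse 2 was likewise above all of its slide for 10 of 10 members in lung and 9 of 10 in liver. Among the 19 livers it was the highest for 3 members, so high values were not confined to dosed mice.

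A mouse with high interferon-stimulated genes in lung tended to have them high in liver. The mean of the 10 members per mouse, with the dose means removed, had a Pearson r of 0.882 and a Spearman rho of 0.768 between lung and liver over 19 mice. Without mice 18 and 9, the farthest from the median in lung, r was 0.753 with dose means that still held them. With dose means taken without them it was 0.743 over the mice with both tissues and 0.714 over all arrays of each tissue. The r of 0.882 is a description across mice of 4 dose groups, and the 2 tissues of a mouse were hybridized on different slides. With slide removed as well it was 0.88, without Oasl1 0.892, and with any 1 mouse left out at least 0.83 and at most 0.91. Without the arrays with a high share of probes above background 11 mice had both tissues, mice 9 and 18 not among them. Over these r was 0.462 with the dose means of all arrays left in each tissue and 0.831 with the dose means of the same 11 mice, so the value depended on that choice. Over all 19 mice the latter way gave 0.892. Mouse 18 had a score of 0.79 in lung, 0.60 in liver and 0.59 in forestomach, and mouse 9 had 0.72, 0.44 and −0.34.

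**Figure D5:**
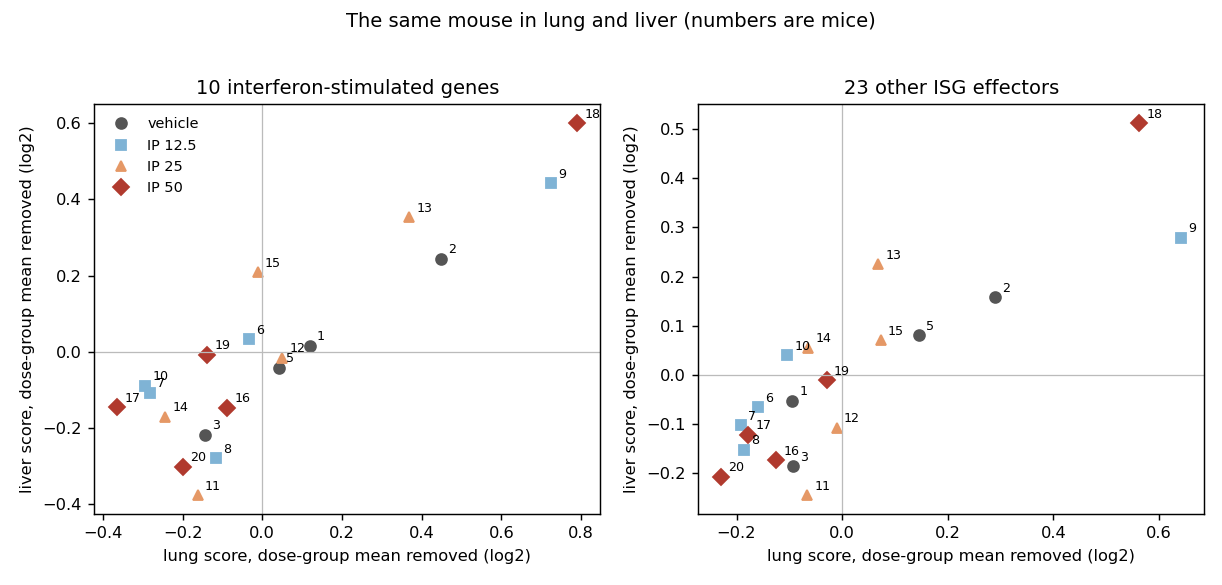
Mean log2 ratio of the 10 interferon-stimulated genes (one panel) and of 23 other effectors (the other panel) in liver (y axis) against lung (x axis) of the same 19 mice, with the dose-group means removed and the mouse number beside each point. Mice 18 and 9 lie farthest to the upper right; r is 0.882 for the members and 0.858 for the other effectors.

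The members differed in how far lung and liver went together. Oasl2 had an r of 0.831, Usp18 of 0.764, Oas2 of 0.687 and Isg15 of 0.664, whereas Oas3 had 0.101 and Oasl1 −0.088. The median over the members was 0.525, against 0.07 over 20567 named genes, for which the 95th percentile was 0.51. The members were picked from measured values and the named genes were not filtered by signal. Nothing is therefore read from the members' place among them, here or for the other pairs of tissues. Oasl2 shows the lung and liver values of single mice. In the dosed lungs it was at 0.44, 0.52, 0.09, 1.57 and 0.40 at 12.5, at 0.41, 0.52, 0.50, −0.02 and 0.66 at 25, and at 0.44, 0.24, 1.32, 0.64 and 0.39 at 50. In the livers of the same mice it was at −1.91, −1.97, −1.97, −0.91 and −1.83, at −1.85, −1.64, −1.13, −1.69 and −1.63, and at −1.57, −1.79, −0.56, −1.43 and −2.14. Mice 9 and 18 were the highest of their dose groups in both tissues, and the order within the group at 25 differed between the tissues.

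The 23 other effectors, none of them a member, had an r of 0.858 (rho 0.767) between lung and liver with dose removed. Without mice 9 and 18 it was 0.734 with dose means that still held them, and 0.743 or 0.716 with dose means taken without them. Without the arrays with a high share of probes above background it was 0.194 or 0.632 over 11 mice, by the same choice of dose means. Between lung and forestomach the members' r was 0.377, and between forestomach and liver 0.378. The latter was 0.127 without mice 18 and 17, with dose means that still held them. With slide removed as well they were 0.245 and 0.23. Taken gene by gene with dose removed, the members' median r was 0.325 and 0.293 for these pairs of tissues. Over all named genes the medians were 0.161 and 0.021 and the 95th percentiles 0.614 and 0.453. The share of probes above background had an r with the members' score of 0.373 in lung, 0.272 in liver and 0.498 in forestomach. Its part was not tested. With dose and slide removed, the mean of each of 11 marker lists was also set against the members' score. In lung these r ran from −0.317 (heart muscle) to 0.39 (glandular stomach). In liver they ran from −0.216 (plasmacytoid dendritic cell) to 0.624 (T cell), followed by 0.514 for hepatocyte and 0.467 for brown fat markers. In forestomach they ran from −0.526 (B cell) to 0.849 (glandular stomach), followed by 0.763 for the plasmacytoid dendritic cell list and 0.567 for squamous epithelium. The forestomach score holds the split of Oasl1. The plasmacytoid list does not mark those cells in forestomach, where Ly6d had a mean log2 ratio of 5.11 against 1.74 in lung, while Siglech had 0.30 against 1.47. The T cell and brown fat lists likewise do not clearly mark their cells in liver. There Cd4 had a mean of 3.465 against 0.336 in lung, while Cd3e had −1.467 against −0.739. Cd8a was well above background on 5 of 19 liver arrays. Of the brown fat markers, Ucp1, Cidea and Cox8b were so on 4, 4 and 5 of 19, and Elovl3 and Cox7a1 on 19. The part of these cells and tissues in the members' variation was not tested.

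The genes outside the members whose pattern over the 20 lungs was most like the mean of the members were Rtp4 (r = 0.896), Xaf1 (0.878), Irf9 (0.875), Stat2 (0.873) and Oas1a (0.84). Irf9 and Stat2 encode subunits of ISGF3, and each of these 5 stood in the pathway lists. Over the 19 livers they were Xaf1 (0.832), H2-T24 (0.807), Bst2 (0.792), Apol9a (0.787) and Oas1a (0.778). In forestomach Oas1a (0.859) was followed by Dok1, Ankrd54, Adssl1 and Arhgef6 (0.857 to 0.835), which are in none of the lists, and there too the mean holds Oasl1. The median r over all named genes was 0.044, 0.017 and −0.026 in lung, liver and forestomach, with 95th percentiles of 0.411, 0.348 and 0.551. That of the 23 other effectors was 0.679, 0.464 and 0.304, so in forestomach it lay below the 95th percentile.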

How the data were processed

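Total RNA of 58 tissue samples was hybridized on dual-colour Agilent 8x60K arrays. Intensity values were extracted by the authors using the Agilent Feature Extraction software (version 10.7.3.1 for lung and forestomach, 11.0.1.1 for liver), which per the file headers writes median spot signals in both channels. The deposited log10 ratios come from the same software after background subtraction and dye normalization. The log2 ratios that the authors deposited are LOWESS-normalized; against the scanner ratios r was 0.996 to 0.999 in lung and 0.997 to 0.999 in forestomach but −0.007 to 0.007 in liver, where they were not used.

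Here log2(Cy5/Cy3) of the median signals was normalized by loess within arrays, spots marked as outliers were left out and spots of a probe were averaged (R 4.3.3, limma 3.58.1, statmod 1.5.0 and the data.table package, version 1.17.8). Probes were named through the accessions in the scanner files. Lung, liver and forestomach each had their own limma model of 4 groups, tissues were compared in a joint model, and p-values were Benjamini-Hochberg adjusted over 55681 probes. The number of arrays, 4 or 5 a group, limits the precision. The fit was checked on simulated data. All members are named; of the pathway genes at most 5 called genes in each direction per comparison, otherwise the 2 largest per list in lung at 50 mg/kg-bw/day, of which a part is printed. The look-alike genes are the 5 with the highest r. The members and lists were chosen with earlier results of these data known. The same animal gave the tissues with the same number per the labels. The median r of same-animal residuals was 0.061 between lung and liver, 0.138 between lung and forestomach and 0.018 between forestomach and liver. In different animals it was −0.008, −0.012 and −0.001. Dose was removed from these residuals but slide was not. The lung and forestomach arrays of a mouse lay on the same slide, except for mouse 3, so there the animal cannot be told apart from the slide. The methods state 4 IP vehicle mice, whereas the labels give 5 in lung; all were used. Mx1, Mx2 and Oas1b were listed but are not reported here. Alternatives were normexp with an offset of 50, median centring, Aquantile, the software's ratio, the deposited ratios, outlier spots retained, a filter on dim probes, slide or mouse as a block, trend and robust options, 1 dose alone, all probes of a gene and each mouse left out; the arrays with a high share of probes above background, Oasl1, and mice 9 and 18 were left out, and dose means taken over shared mice, as alternatives chosen after seeing the data.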

Additional observations from a re-analysis of the deposited data

Results flagged for a closer look

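The lowest and highest mouse of each group of 4 or 5 was set against the rest for the 10 members in 3 tissues by Dixon's ratio at 95%. Of 120 groups 10 had a mouse that stood apart, and in independent groups chance alone gives about 1 in 20. The members were picked from measured values and vary together over the same mice, so these groups are not independent. Nothing is therefore read from the count, and the flags are a description. Of the 10 flagged groups, 6 were mouse 9 or mouse 18, with the value high, and 4 lay on arrays with a high share of probes above background. Mouse 9 (12.5 mg/kg-bw/day) stood apart in lung for Ifit3 at 2.89, with its group at 1.98 to 2.22, and for Oas2 at −0.20, and in liver for Isg15 at −0.26 and Oasl2 at −0.91. Mouse 18 (50 mg/kg-bw/day) stood apart for Irf7 in lung at −0.40, with its group at −1.87 to −1.63, and for Usp18 in liver at −0.87, with its group at −2.18 to −2.02. Mouse 3 (vehicle) stood apart for Oas3 in lung at −0.68 and for Oasl1 in liver at −0.37, its lung array being one of the 4 with a high share of probes above background. Mouse 11 (25 mg/kg-bw/day) was low for Ifit3 in liver at −0.34, and mouse 1 (vehicle) for Oasl1 in forestomach at −3.38, on the low side of the gap described for that gene.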

How the results depend on the processing

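Median centring moved the most values. It gave liver medians of the 10 members of 0.050, 0.11 and 0.35 at the rising doses, liver differences of −0.47 for Irf7 and −0.61 for Oasl1 at 50, vehicle medians of 1.45 for lung minus liver (0.52 under loess), 1.97 for lung minus forestomach (1.54) and −0.46 for forestomach minus liver (−0.91), where 2 members were called in place of 7, and response medians of −0.085 for lung minus liver (0.36) and 0.039 for forestomach minus liver (0.43). It also gave a lung to liver r of 0.79 in place of 0.88. Without the arrays with a high share of probes above background that r was 0.46, or 0.83 with dose means over the same mice in both tissues. The software's own ratio gave −1.34 for the vehicle forestomach minus liver median. The cause of these shifts was not tested, and the share of all probes called between vehicle tissues under median centring was not counted. No member and no pathway gene was called against vehicle by limma at any dose under any alternative run. Lung calls over all probes at 50 were 44, but 156 with slide as a block, 15 with vehicle and 1 dose alone, 5 with median centring, 3 with the software's ratio, 26 without the 4 arrays of slide 3, and 27, 29, 21 and 20 without mouse 2, 5, 18 or 19. At 25 they were 7, from 0 to 58 over the alternatives. With mouse number as a random block for the pairing of tissues, 36, 46 and 43 pathway genes were called between vehicle lung and liver, lung and forestomach, and forestomach and liver, against 36, 45 and 43 without it, and no call count of members changed. With each mouse left out, the members' medians at 50 ranged from −0.20 to 0.15 in lung, −0.50 to −0.22 in liver and −0.06 to 0.12 in forestomach, and no count of called members or pathway genes was moved by over 1.5 times. Signals near background limit Rsad2, Ifit1 and Irf7 in forestomach.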
